A study of Mus musculus with 2 samples.

Results

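MicroRNAs of leukocytes and of the inflammatory response were examined in mouse heart by microRNA-seq, which sequences short RNAs. The set was fixed by gene name and holds 7 of the 2202 miRNA genes counted, namely Mir142, Mir142b, Mir146, Mir146b, Mir150, Mir155 and Mir223. A miRNA gene here is an annotated hairpin, and Mir146 is the hairpin of miR-146a. Heart tissue came from male adults, 8 to 10 months old, of the strain labelled 5xFAD/CAST. 5xFAD mice carry transgenes driven by the neuronal Thy1 promoter and are used as a model of brain amyloid, and CAST is a wild-derived strain. The labels do not give the allele state of each animal. They name 1 group with 2 libraries, biological replicates 2 and 1, so the data allow a description of levels and a comparison of the libraries, and no comparison of conditions. The replicates have separate biosample entries and share a donor entry, and nothing states that they came from separate animals, so spreads and p-values measure only the difference between these libraries.

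A miRNA is cut from its hairpin as a short mature strand that guides the silencing complex to messenger RNAs, mainly through its seed, bases 2 to 8. miR-142 is made by blood cells of all lineages, miR-223 mainly by neutrophils and other myeloid cells, and miR-150 by mature lymphocytes. miR-155 is induced in activated macrophages and lymphocytes from its host transcript. miR-146a and miR-146b are induced by NF-kappaB and repress the adaptors Traf6 and Irak1, a brake on the same pathway. miR-155 and miR-146a are also made by endothelial and other non-blood cells. In bulk heart tissue, fewer cells of a type and less miRNA per cell cannot be told apart.

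The mature strands show how the genes relate to each other, and where reads of different genes can look alike. All 7 genes matched RefSeq (build GRCm38.p6) by symbol, with 12 mature sequences of 20 to 23 nt. For Mir150 these, and the seed comparisons, cover miR-150-3p only. The strands that the results turn on are written 5′ to 3′ with the seed in capitals.
miR-155-5p: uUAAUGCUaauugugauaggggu
miR-146a-5p: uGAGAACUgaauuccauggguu
miR-146b-5p: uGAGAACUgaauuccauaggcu
miR-223-3p: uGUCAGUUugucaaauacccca
miR-142a-5p: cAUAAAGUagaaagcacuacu
miR-142a-3p: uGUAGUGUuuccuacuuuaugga
miR-142b: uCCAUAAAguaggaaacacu

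The 12 strands carried 11 seeds, since miR-146a-5p and miR-146b-5p share one. No other mature miRNA among the 1738 in the sequence table had that seed, and none shared a seed with the remaining 10 strands. miR-146a-5p and miR-146b-5p are identical at 20 of 22 positions and differ by G18A and U21C, with miR-146a-5p given first and positions counted from 1 at the 5′ end. Their first 17 bases are the same, so a read ending there matches both. Their hairpins share a stretch of 21 nt, and among the 6 member hairpins compared, which leave out Mir150, no other pair, and no other hairpin, shared 16 nt or more with a member. The 20 bases of miR-142b lie wholly inside the reverse complement of miR-142a-3p.

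On mm10 with GENCODE M21, the genes lay at 6 loci. Mir155 (ENSMUSG00000065397.1, chromosome 16, 84714140 to 84714204, plus strand) lay in an exon of the long noncoding RNA Mir155hg. Mir142 (ENSMUSG00000105196.1, chromosome 11, 87756864 to 87756927, plus strand) lay in an intron of the long noncoding RNA Mir142hg. Mir142b (ENSMUSG00000065420.2, chromosome 11, 87756841 to 87756955, minus strand) spanned the same locus on the other strand. Mir223 (ENSMUSG00000076066.1, chromosome X, 96242817 to 96242926, plus strand) lay in an exon of the noncoding gene F630028O10Rik. Mir146b (ENSMUSG00000070127.2, chromosome 19, 46342762 to 46342870, plus strand) lay in an intron of the protein-coding gene Mfsd13a. Mir146 (ENSMUSG00000065601.1, chromosome 11, 43374397 to 43374461, minus strand) and Mir150 (ENSMUSG00000065495.1, chromosome 7, 45121757 to 45121821, plus strand) overlapped no other annotated gene.

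Sense counts over all miRNA genes totalled 5058613 in replicate 2 and 3889280 in replicate 1. Levels are sense counts scaled by these totals, as counts per 1000000 (CPM). Detection meant 10 or more counts in each library, which 325 genes reached. Each read stands for a short RNA of similar length, so levels were not divided by length. Reads aligned to several places were 46.8% of all reads in replicate 2 and 42.3% in replicate 1 and were given to no gene. Markers of the labelled tissue were present, with Mir208a and Mir499, made from introns of heart myosin genes, at means of 2685 and 4310 CPM. Some other muscle miRNA genes had few counts. Mir1a-1 had 5 counts in replicate 2 and 9 in replicate 1, Mir133a-2 had 14 and 10, and Mir133b had 26 and 15. Whether their reads were among those given to no gene was not tested. CPM, ranks and shares describe only the reads given to a gene.

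Of the 7 genes 5 were detected, and Mir155 was the most abundant. The 7 genes summed to 34385 counts in replicate 2 and 32599 counts in replicate 1. These were 0.680% of sense counts in replicate 2 (exact 95% binomial interval, Clopper-Pearson, 0.673 to 0.687) against 0.838% in replicate 1 (0.829 to 0.847), a mean of 0.759% ± 0.112 (SD, n = 2). Mir155 alone gave 47.2% of these counts in replicate 2 (46.7 to 47.8). In replicate 1 it gave 58.1% (57.6 to 58.7). In replicate 2 Mir146 gave 26.4%, Mir150 22.2%, Mir223 2.70% and Mir142 1.41%. In replicate 1 Mir146 gave 18.5%, Mir150 19.9%, Mir223 2.28% and Mir142 1.13%. Mir155 and Mir146 thus held most of the counts. Among the blood cell genes, Mir150 held far more than Mir223 and Mir142. Whether counts of different miRNAs compare as amounts in the tissue was not tested. Mir142, made by blood cells of all lineages, held less than Mir150, so the counts give no ranking of cell types.

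**Figure D1:**
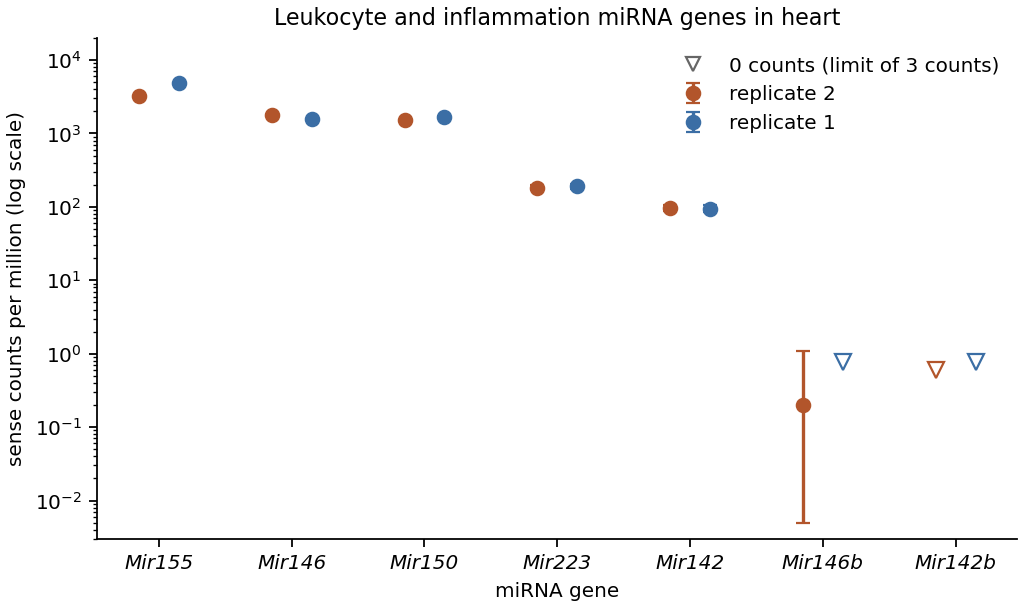
Sense level in CPM (log axis) of the 7 genes in replicate 2 and replicate 1, with 95% exact Poisson intervals as bars and open triangles at the limit of 3 counts where a library had 0 counts. Mir155, Mir146 and Mir150 stand highest, at 1510 CPM or more in both libraries, Mir223 and Mir142 lie between 94.6 and 191 CPM, and Mir146b and Mir142b had at most 1 count.

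Mir155 had 16244 counts in replicate 2 and 18951 in replicate 1. Its level was 3211 CPM in replicate 2 (95% exact Poisson interval 3162 to 3261) and 4873 CPM in replicate 1 (4803 to 4943), a mean of 4042 ± 1175 CPM (SD, n = 2). It ranked 33 of 2202 genes by mean level. Replicate 1 was the higher library, and the counting intervals did not overlap.

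The miR-146 genes share a seed, and nearly all of their counts came from Mir146. Mir146 had 9089 counts in replicate 2 and 6035 in replicate 1, or 1797 CPM in replicate 2 (1760 to 1834) against 1552 CPM in replicate 1 (1513 to 1591), a mean of 1674 ± 173 CPM at rank 46. Mir146b had 1 count in replicate 2, or 0.198 CPM (0.00500 to 1.10), and 0 in replicate 1, where a count of 0 allows up to 0.771 CPM. In replicate 2 the Mir146 count was 9089 times that of Mir146b, with an exact interval of 1631 to 359035. In replicate 1 it was 2012 times the floor of 3 counts taken for Mir146b in that library. The exact interval of the ratio in replicate 1 began at 1635.5. The floor and the exact intervals are built differently. The intervals began at similar values, so they do not show whether the libraries differed in this ratio. Reads that fit both hairpins equally would be among those given to no gene, and how many were lost this way was not tested.

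Mir150, a gene of mature lymphocytes, was read 7638 times in replicate 2 and 6503 times in replicate 1. Its level was 1510 CPM in replicate 2 (1476 to 1544) against 1672 CPM in replicate 1 (1632 to 1713), a mean of 1591 ± 115 CPM at rank 48. Mir150 thus lay next to Mir146, below it in replicate 2 and above it in replicate 1.

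The genes of all blood cells and of myeloid cells were lower and were close in both libraries. Mir223 had 929 counts in replicate 2 and 742 in replicate 1, or 184 CPM in replicate 2 (172 to 196) against 191 CPM in replicate 1 (177 to 205), a mean of 187 ± 5.04 CPM at rank 110. Mir142 had 484 counts in replicate 2 and 368 in replicate 1, or 95.7 CPM in replicate 2 (87.3 to 105) against 94.6 CPM in replicate 1 (85.2 to 105), a mean of 95.1 ± 0.749 CPM at rank 136. For both genes the counting intervals of the libraries overlapped. Both stood above the median of detected genes, 49.2 CPM.

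Mir142b had 0 sense counts in either library, which allows up to 0.593 CPM in replicate 2, against 0.771 CPM in replicate 1. The column that ignores strand listed Mir142 at 0 in both libraries, and the Mir142 and Mir142b annotations overlap. That column set aside 1274429 reads as ambiguous in replicate 2 and 857957 in replicate 1, and the sense column set aside 0. The level of Mir142 therefore rests on the strand-specific column. The same held for 16 of the 325 detected genes, or 4.92%, which were at 0 in the column that ignores strand. The other 4 detected members had equal counts in both columns.

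The order by mean level was Mir155, Mir146, Mir150, Mir223 and Mir142. Of the neighbouring pairs in this order, Mir146 and Mir150 did not differ beyond their spread, since their means ± SD overlapped. The ranges of the other neighbours did not overlap. Mir146 counts were 1.19 times those of Mir150 in replicate 2, with an exact 95% interval of 1.15 to 1.23, and 0.928 times in replicate 1 (0.896 to 0.961). Mir223 exceeded Mir142 by 1.92 to 1 in replicate 2 (1.72 to 2.15) and 2.02 to 1 in replicate 1 (1.78 to 2.29).

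Ratios within a library do not depend on how the libraries are scaled, and those with Mir155 differed between the libraries beyond counting error. Mir155 exceeded Mir146 by 1.79 to 1 in replicate 2 (1.74 to 1.83) and 3.14 to 1 in replicate 1 (3.05 to 3.23). It exceeded Mir142 by 33.6 to 1 in replicate 2 (30.7 to 36.8) and 51.5 to 1 in replicate 1 (46.4 to 57.2). Of the 10 pairs of detected members, 6 had intervals that did not overlap between the libraries, among them all 4 pairs with Mir155. The other 2 were Mir146 with Mir150 and with Mir223. The 4 pairs with overlapping intervals were Mir142 with Mir146, with Mir150 and with Mir223, and Mir150 with Mir223. These intervals cover counting error only. The 4 pairs with Mir155 share that gene and are not separate results. The share among pairs of all detected genes was not computed, so the 6 of 10 pairs show nothing particular to the members. Of single genes, 45.4% of all those tested differed between the libraries in the test given below.

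**Figure D2:**
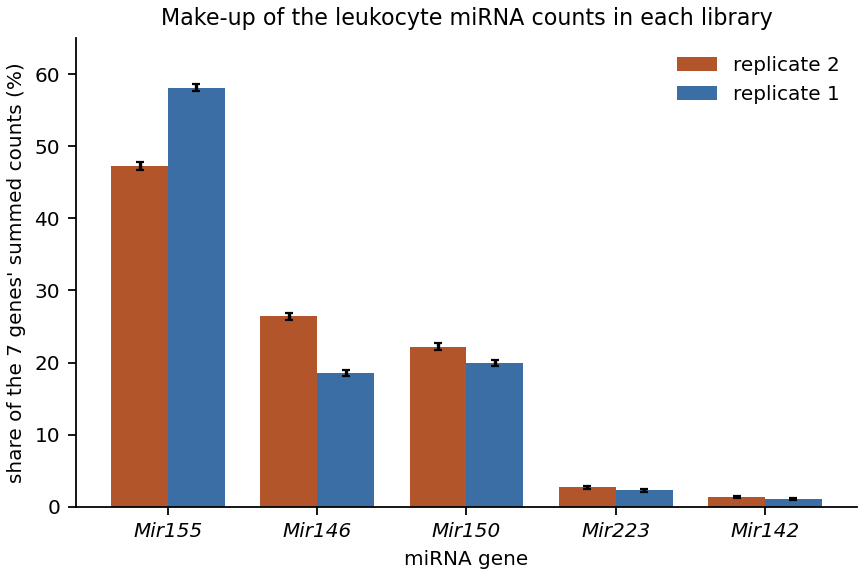
Share of the summed counts of the 7 genes (percent, from 0) held by each of the 5 detected genes in replicate 2 and replicate 1, with 95% Clopper-Pearson intervals. Mir155 takes 47.2% in replicate 2 and 58.1% in replicate 1, while Mir146 takes 26.4% in replicate 2 and 18.5% in replicate 1.

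Between the libraries, Mir155 and Mir146 differed past the test and in opposite directions. Genes with a summed count of at least 10 were tested by an exact binomial test, two-sided and set to TMM-scaled library sizes, with Benjamini-Hochberg adjustment over all 412 tested genes at 0.05. Mir155 was lower in replicate 2, with a log2 ratio of replicate 2 over replicate 1 of -0.48, or 1.40-fold higher in replicate 1 (adjusted p = 8.08e-213, exact binomial). Mir146 was 1.26-fold higher in replicate 2, with a log2 ratio of 0.33 (adjusted p = 1.92e-43, exact binomial). The log2 ratios were 0.14 for Mir142 (adjusted p = 0.293), 0.07 for Mir223 (0.501) and -0.03 for Mir150 (0.411, all exact binomial), which did not pass. Mir146b and Mir142b had too few counts to be tested.

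The 2 calls among 5 tested members stand beside 45.4% called among all tested genes, a share near that of the 5 members, 40.0%. In one direction, 1 member was higher in replicate 2, beside 22.6% of all tested genes, and 1 in replicate 1, beside 22.8%. With total counts as the scale, 39.7% of all calls were higher in replicate 2, against 49.7% with TMM. Total counts moved the median log2 ratio of detected genes by -0.12. With total counts the log2 ratio was -0.60 for Mir155 and 0.21 for Mir146. A change of scale moves every gene by nearly the same amount, so it cannot test these genes relative to the others. With TMM, 39.4% of detected genes had a larger absolute log2 ratio than Mir155 and 53.2% than Mir146. The share was 80.9% for Mir142, 90.8% for Mir223 and 94.2% for Mir150. When edgeR's exact test allowed for the spread over all genes, with a biological coefficient of variation of 0.357, neither call was kept. Its dispersion was estimated from the same 2 libraries and treats every difference between them as spread. The loss of the calls therefore cannot decide whether these 2 genes differ.

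**Figure D3:**
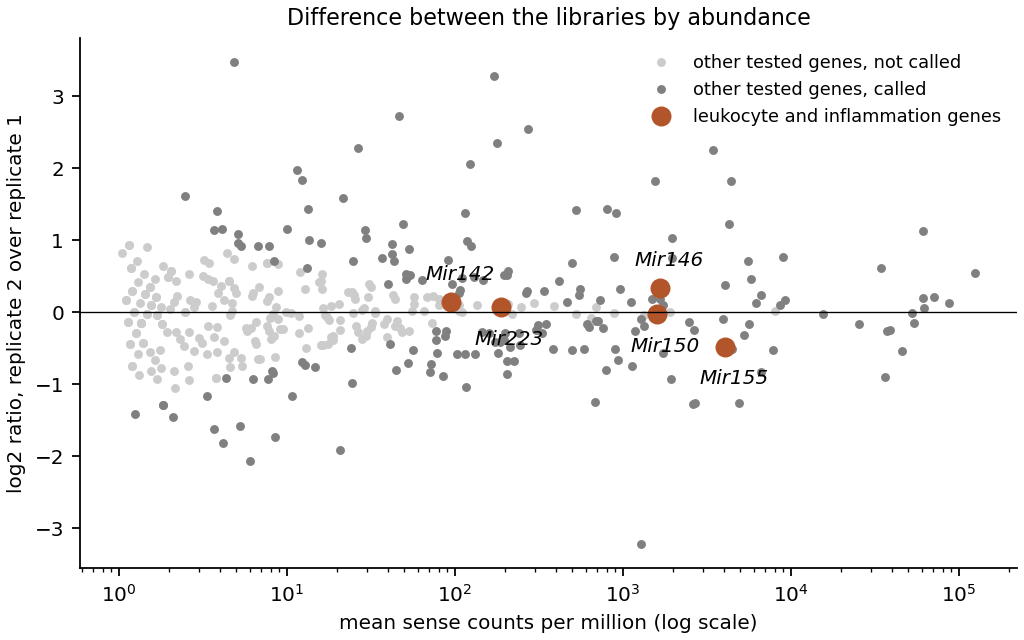
Log2 ratio of replicate 2 over replicate 1 against mean level in CPM (log axis) for the 412 tested genes, with called genes in dark grey and the 5 tested members labelled. The members lie between -0.48 for Mir155 and 0.33 for Mir146, inside the spread of genes of similar level.

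Several markers of other heart cell types, though not all, stood at different levels in the libraries, and their part in the differences of the members was not tested. These levels are scaled by sense totals, and not by TMM as in the test. Replicate 2 had 87787 CPM of Mir126a, the endothelial miRNA, against 87115 CPM for replicate 1. The test still called Mir126a higher in replicate 2, at a log2 ratio of 0.13 with TMM. With total counts the call was kept, at a log2 ratio of 0.011 (adjusted p = 0.00208, exact binomial). The red cell gene Mir451a stood at 165 CPM in replicate 2 against 288 CPM in replicate 1, and its neighbour Mir144 at 52.4 CPM in replicate 2 against 32.1 CPM in replicate 1. Of the heart muscle markers, Mir499 was higher in replicate 2, with 5888 CPM against 2732 CPM in replicate 1. Mir208a was lower in replicate 2, with 1485 CPM against 3885 CPM in replicate 1, as was Mir208b, with 56.5 CPM in replicate 2 against 115 CPM in replicate 1. The smooth muscle marker Mir143 had 40225 CPM in replicate 2 against 28674 CPM in replicate 1, and Mir145a had 1522 CPM in replicate 2 against 1463 CPM in replicate 1. The fibroblast markers summed to 1265 CPM in replicate 2 and 2610 CPM in replicate 1, nearly all from Mir214. Mir199a-1 had 0 counts in both, Mir199a-2 had 17 in replicate 2 and 20 in replicate 1, and Mir199b had 41 and 29. Reads aligned to several places were given to no gene, so these counts do not show whether miR-199 was absent. How many of its reads were lost was not tested.

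Set against single markers, the ratio of Mir142 to the endothelial gene had overlapping intervals in the libraries, and its ratios to the red cell genes Mir451a and Mir144 did not and differed in opposite directions. Mir142 counts were 0.00109 of Mir126a counts in replicate 2 and also 0.00109 in replicate 1, with exact 95% intervals of 0.000995 to 0.00119 and 0.000978 to 0.00120. The ratio of Mir142 to Mir451a was 0.581 in replicate 2 (0.518 to 0.651) against 0.329 in replicate 1 (0.292 to 0.370). The ratio of Mir142 to Mir144 was instead the lower in replicate 2, at 1.83 (1.57 to 2.13) against 2.94 in replicate 1 (2.40 to 3.64). Mir155 to Mir126a was 0.0366 in replicate 2 (0.0360 to 0.0372) against 0.0559 in replicate 1 (0.0551 to 0.0568), and these intervals did not overlap. Mir223 exceeded Mir451a in replicate 2, with a ratio of 1.12 (1.01 to 1.23), and not in replicate 1, with 0.663 (0.604 to 0.728). It exceeded Mir144 in both, by 3.51 to 1 in replicate 2 (3.06 to 4.03) and 5.94 to 1 in replicate 1 (4.91 to 7.23), so the comparison with red cell genes depends on the gene chosen.

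Other miRNAs of inflammation differed between the libraries in 12 of 13 tested genes, 7 higher in replicate 2 and 5 higher in replicate 1. Over all tested genes 45.4% were called, 22.6% and 22.8% in these directions. With a summed count of at least 50 required, 175 of 282 genes were called, and 12 of the 13. edgeR's exact test with a common dispersion, which treats every difference between the libraries as spread, called 0 of the 13. The list has 16 genes linked to NF-kappaB signalling or macrophage activation, and 13 were detected. Its median log2 ratio was 0.12, against 0.07 over the 5 tested members and -0.01 over all tested genes. With total counts the median of the list was 0.0016 and that of the members -0.05, and in the column that ignores strand that of the list was 0.053. Mir125a, a relative of the worm lin-4 miRNA in a cluster with Mir99b and Mirlet7e, was lower in replicate 2, with 6148 CPM against 9611 CPM in replicate 1 (log2 ratio -0.52). Its neighbour Mirlet7e, of the let-7 family, had 6223 CPM in replicate 2 against 6216 CPM in replicate 1 and a log2 ratio of 0.12, which fell to 0.0016 and lost its call with total counts (adjusted p = 0.965, exact binomial). Mir27b, of the miR-23b cluster, was higher in replicate 2, with 6654 CPM against 4423 CPM in replicate 1 (log2 ratio 0.71). The largest absolute log2 ratio of the list was that of Mir21a, 2.25, with 5632 CPM in replicate 2 against 1291 CPM in replicate 1. Mir99b was lower in replicate 2, at a log2 ratio of -1.26. Of the macrophage miRNAs, Mir511, in an intron of a mannose receptor gene, was 3.57-fold higher in replicate 2, with 98 counts against 20 in replicate 1. Mir147, induced by Toll-like receptors, had 25 counts in replicate 2 and 26 in replicate 1 and did not pass.

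Other lymphocyte miRNAs differed in 10 of 15 tested genes, 3 higher in replicate 2 and 7 higher in replicate 1, beside the same 45.4% of all tested genes. With a summed count of at least 50 required, 11 of the 15 were called, beside 175 of 282 genes. With edgeR's common dispersion, which treats every difference between the libraries as spread, 0 of the 15 were called. The list has 17 genes, and its median log2 ratio was -0.08, which was -0.20 with total counts and, ignoring strand, -0.029. Mir342, in an intron of Evl and abundant in lymphocytes, had 599 CPM in replicate 2 against 687 CPM in replicate 1 and did not pass (adjusted p = 0.0898, exact binomial), but did with total counts (8.01e-07, exact binomial). Mir92-1, of the miR-17-92 cluster that promotes lymphocyte growth, was lower in replicate 2, with 806 CPM against 1468 CPM in replicate 1 (log2 ratio -0.74). Mir17 of the same cluster had 851 CPM in replicate 2 against 930 CPM in replicate 1 and did not pass, except with total counts (adjusted p = 0.000287, exact binomial). Mir15a, a repressor of Bcl2, was lower in replicate 2, with 701 CPM against 1089 CPM in replicate 1 (log2 ratio -0.51). The 3 genes higher in replicate 2 were Mir15b, Mir16-1 and Mir16-2, with log2 ratios of 0.77, 0.68 and 0.48. Of these, Mir16-1 lies beside Mir15a on chromosome 14. The lymphocyte genes Mir342 and Mir150 had log2 ratios of -0.08 and -0.03.

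**Figure D4:**
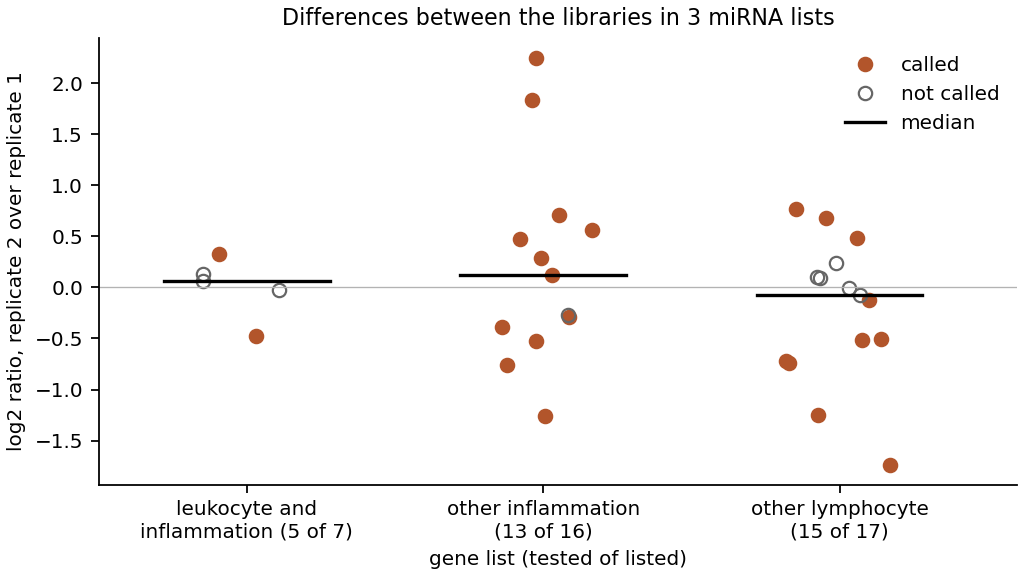
Log2 ratio of replicate 2 over replicate 1 of each tested gene in the leukocyte and inflammation set (5 of 7), the other inflammation list (13 of 16) and the other lymphocyte list (15 of 17), with called genes filled and medians as black lines. The medians are 0.07, 0.12 and -0.08, and with total counts they were -0.05, 0.0016 and -0.20.

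Among the other detected genes, those nearest to each member in level over the 2 libraries came from several chromosomes. Likeness was the Euclidean distance of log2(CPM + 1). Mir155 was nearest to Mir744 at a distance of 0.20, which had 3494 CPM in replicate 2 against 5428 CPM in replicate 1, and next to Mir320 at 0.27. Mir146 was nearest to Mir98 at 0.10 and Mir10a at 0.14, and Mir150 to Mir98 at 0.18 and Mir145a at 0.19. Mir223 was nearest to Mirlet7f-1 at 0.22 and Mir671 at 0.27. Mir142 was nearest to Mir152 at 0.18 and Mir181a-1 at 0.21. The distance weighs the level and the difference between the libraries together.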

How the data were processed

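Small RNA libraries were made from total RNA with a size range below 30, per the labels. The authors deposited a table of raw read counts for each library, with 3 count columns and 4 summary lines that name no gene. These lines held 64.4% of reads in replicate 2 and 64.1% in replicate 1 and stayed out of library sizes and tests. Per the file headers, the build was mm10 and the annotation GENCODE M21. The aligner is not given in the sources used here, nor are its settings. The strand column with the larger gene total in both libraries was taken as sense. Counts of a hairpin pool its mature arms.

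CPM, log2 ratios (1 CPM added to both levels) and exact binomial tests were computed with scipy 1.17.1. Scaling used TMM in edgeR 4.0.16, and DESeq2 1.42.0 gave alternative size factors. edgeR's quasi-likelihood test was not run, as there is 1 group. The binomial test compares 2 libraries and no conditions. The test was checked on simulated counts that held counting error only, so that check does not cover any further spread between libraries. Intervals and floors (3 counts for a count of 0) cover counting error only, since no molecular identifiers are recorded in the sources used here. Alternatives covered scaling, strand column, low-count filter, added CPM, error model and leaving out each library.

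Members and lists were chosen with earlier results of these data known. Genes named are all members, the 2 nearest detected genes to each, and cell type markers. Also named are the 3 most abundant genes of each other list with Mir147, Mir511 and Mir342, and the muscle genes Mir1a-1, Mir133a-2 and Mir133b.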

Additional observations from a re-analysis of the deposited data

Results flagged for a closer look

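Counts appeared in the opposite-strand column, which the comparisons did not use. Mir142b had 484 counts there in replicate 2 and 368 in replicate 1, above the 3 counts that a count of 0 allows. They equal the sense counts of Mir142 in each library, whose hairpin is annotated on the other strand of the same locus. The other 6 genes had 0 counts in that column in both libraries.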

How the results depend on the processing

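The summed share of the 7 genes was 0.980% in the column that ignores strand and 0.272% of all reads in the tables, against 0.759% of sense counts. Leaving out each library in turn gave 0.680% to 0.838%. With 2 libraries this restates the value of each library and adds no further check. The same holds for the count ratios. They ranged from 1.79 to 3.14 for Mir155 over Mir146 and 0.928 to 1.19 for Mir146 over Mir150. For Mir150 over Mir223 they ranged from 8.22 to 8.76, and for Mir223 over Mir142 from 1.92 to 2.02. With edgeR's exact test and a common dispersion, 3 genes were called in place of 187. That test called 0 members, 0 other inflammation genes and 0 other lymphocyte genes, in place of 2, 12 and 10, with 0, 2 and 1 at an unadjusted p under 0.05. Its dispersion treats every difference between the libraries as spread. Mir155 and Mir146 kept their calls and directions in the other 7 settings, with log2 ratios from -0.60 to -0.43 and 0.21 to 0.38. With 0.5 or 5 CPM added the calls could not change, since the test does not use the added CPM. The log2 ratio of Mir150 was 0.022 in the column that ignores strand, against -0.03, and -0.15 with total counts, where it passed the test (adjusted p = 6.36e-09, exact binomial). The log2 ratio of Mir223 was -0.055 with total counts, against 0.07, so neither gene has a settled direction. The median of the 5 tested members was -0.05 with total counts, against 0.07. The medians of the other inflammation and lymphocyte lists were then 0.0016 and -0.20, against 0.12 and -0.08. Mir142 could not be given a ratio in the column that ignores strand, where it had 0 counts. No paired analysis was possible because the labels give 1 group. Depth limits Mir142b, whose 0 counts allow up to 0.593 CPM in replicate 2 and 0.771 CPM in replicate 1. It limits Mir146b too, at 1 count in replicate 2, and reads of Mir146b lost to its likeness with Mir146 were not tested.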
